A study of Mus musculus with 14 samples.

Results

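The thymus tumours of 3 mice in which Lmo2 was switched on in B-lineage cells were compared with the healthy thymus of 4 wild-type (WT) mice, 7 of the 14 libraries of the series. The members were chosen by genotype alone. Both libraries labelled Rosa26-Lmo2+Mb1-Cre and the only library labelled Rosa26-Lmo2+Aid-Cre were taken as 1 group of 3, and the table was limited to genes with at least 1 CPM (the count of a gene scaled to library size) in 3 or more of the 14 libraries, which kept 17087 of 46946 genes. All mice were of mixed C57BL/6;CBA strain. In the Rosa26-Lmo2+Mb1-Cre mice (n = 2, 20 months old) an Lmo2 cDNA in the Rosa26 locus is freed by Cre from the mb1 (Cd79a) gene, which acts from the pro-B cell on. In the single Rosa26-Lmo2+Aid-Cre animal (22 months old, n = 1) the same allele is freed by the Aid-Cre allele in germinal centre B cells, after an injection of sheep red blood cells. WT thymus (n = 4) came from mice aged 4 months that carried neither allele, so age and genotype cannot be told apart. 2 further tumour groups served for comparison. In mice of the Rosa26-Lmo2+Sca1-Cre genotype (9 months old, n = 3) the same Rosa26 allele is opened in haematopoietic stem and progenitor cells, and in Sca1-Lmo2 mice (n = 4, 7 to 8 months) the Sca1 promoter drives Lmo2 itself. RNA came from whole frozen thymus by the labels and from blast cells by the study's methods. A single Aid-Cre tumour stands for its model. The tumours are called Mb1-Cre 1, Mb1-Cre 2 and Aid-Cre below, and values are given in that order and then for WT 1 to WT 4.

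LMO2 is an adaptor that joins LDB1, GATA and basic helix-loop-helix factors into complexes in blood stem and progenitor cells, and it falls silent as T cells develop. In human T-cell acute lymphoblastic leukaemia (T-ALL) it is a known oncogene, together with activated NOTCH1, high MYC and loss of the CDKN2A locus. Thymocytes first rearrange the beta chain of the T cell receptor, pass the pre-TCR checkpoint with PTCRA, divide, rearrange the alpha chain at the CD4 CD8 double-positive stage and are then selected by receptor signals that induce CD69, EGR and NR4A genes. B cells instead depend on PAX5 and EBF1 and make CD79A and CD79B.

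Total counts per library lay between 42985130 and 47667663, with 42985130 to 45715421 in the 3 tumours and 43051805 to 44731943 in WT. The tumours varied more among themselves than the WT libraries did, with a biological coefficient of variation of 0.557 against 0.299. Over genes, the Spearman correlation was 0.943 between both Mb1-Cre tumours, 0.914 and 0.900 between these and Aid-Cre, and 0.963 to 0.990 between WT libraries. By their counts the 3 tumours were male, WT 1 and WT 2 male, and WT 3 and WT 4 female. Mb1-Cre 2 stood apart in its TMM factor, at 0.746 against 0.946 and 1.12 in the other tumours and 1.09 to 1.23 in WT, so its scaled values rest on the largest correction. Counts on 5 genes that carry mitochondrial sequence, which can move with RNA quality, made up 4.40%, 4.77% and 6.22% of a tumour library and 2.48% to 3.80% of a WT library. Their part in the results was not tested. CPM values below are scaled by the TMM factors. Gene lengths are not part of them, so levels are compared between libraries and not between genes. Among the genes named below, Bid, Ccr9, Fbxw7, Igkc, Lyl1, Ms4a1, Notch3, Rag1, Rb1, Supt16, Tcf12, Tcf7, Themis and Trdc share part of their span with another gene that holds 0.52 to 3.61 times their counts, and reads in the shared part cannot be told apart.

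Lmo2 (chromosome 2, 103957986 to 103981878, plus strand, mm10/GRCm38) was the gene switched on. It stood at 3.96, 6.99 and 22.2 CPM in the tumours, from 171, 233 and 1064 counts, and at 3.23, 1.63, 3.28 and 4.43 CPM in WT. The groups overlapped, since Mb1-Cre 1 lay below WT 4, and Aid-Cre was by far the highest library. The rise of Lmo2 was 1.81 on the log2 scale (SE 0.51, adjusted p = 0.0211). This and the other adjusted p values are from edgeR's quasi-likelihood test with Benjamini-Hochberg adjustment over all 17087 genes, and a gene with an adjusted p under 0.05 is said to pass the test, or to be called. The call for Lmo2 was lost without Aid-Cre (log2 fold change 0.80, adjusted p = 0.155), without WT 2 (1.60, 0.0535) and without WT 3 (1.83, 0.0502). It was also lost on library totals without TMM factors (1.61, 0.0683), with limma-voom (1.57, 0.0566) and without both female WT libraries (2.19, 0.0911). The antisense gene 4931422A03Rik overlaps Lmo2 and held 1.04 times its counts, and unstranded reads do not separate them, nor the transgene from the endogenous gene. The host locus of the allele, Gt(ROSA)26Sor, stood at 48.2, 47.0 and 34.3 CPM against 78.7, 72.3, 59.5 and 59.4 CPM in WT (log2 fold change -0.64, SE 0.32, adjusted p = 0.148, and -0.97 with adjusted p = 0.0329 without TMM factors). It shares its span with Thumpd3. The gene whose promoter drove Mb1-Cre, Cd79a, a signalling chain of the B cell receptor, stood at 1.46, 0.69 and 13.4 CPM against 20.8, 8.64, 11.2 and 15.8 CPM, so that both Mb1-Cre tumours lay below all WT libraries and Aid-Cre among them (log2 fold change -1.44, SE 0.91, adjusted p = 0.248, and -3.70 with adjusted p = 0.00892 without Aid-Cre).

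The comparison of the 3 tumours with WT asked what thymus tumours that began from B-lineage Lmo2 expression express differently from healthy thymus. Of 17087 genes tested, 4775 passed the test (27.9%), 2761 higher (16.2%) and 2014 lower (11.8%), and 3709 of these differed by at least 2-fold. In 6806 genes (39.8%) all tumours lay on one side of all WT libraries, 3210 of them higher (18.8%) and 3596 lower (21.0%). The median log2 fold change over all genes was 0.03, and moved to -0.28 without TMM factors. The 3 tumours departed from WT to different extents. The median log2 ratio to the WT mean was 1.43, 1.86 and 0.92 in the genes called higher and -1.35, -1.64 and -1.09 in those called lower, so Mb1-Cre 2 departed most from WT and Aid-Cre least. The number of calls depended on single libraries. It was 5999 without Aid-Cre, 3504 without Mb1-Cre 1, 1930 without Mb1-Cre 2, 2952 without WT 3 and 2692 without WT 4. Without both female WT libraries, WT 3 and WT 4, it was 623, with both other tumour groups kept in the fit. The share of calls that were higher was 57.8%, against 42.1% without TMM factors, 48.6% with limma-voom and 41.4% without both female WT libraries.

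**Figure D1:**
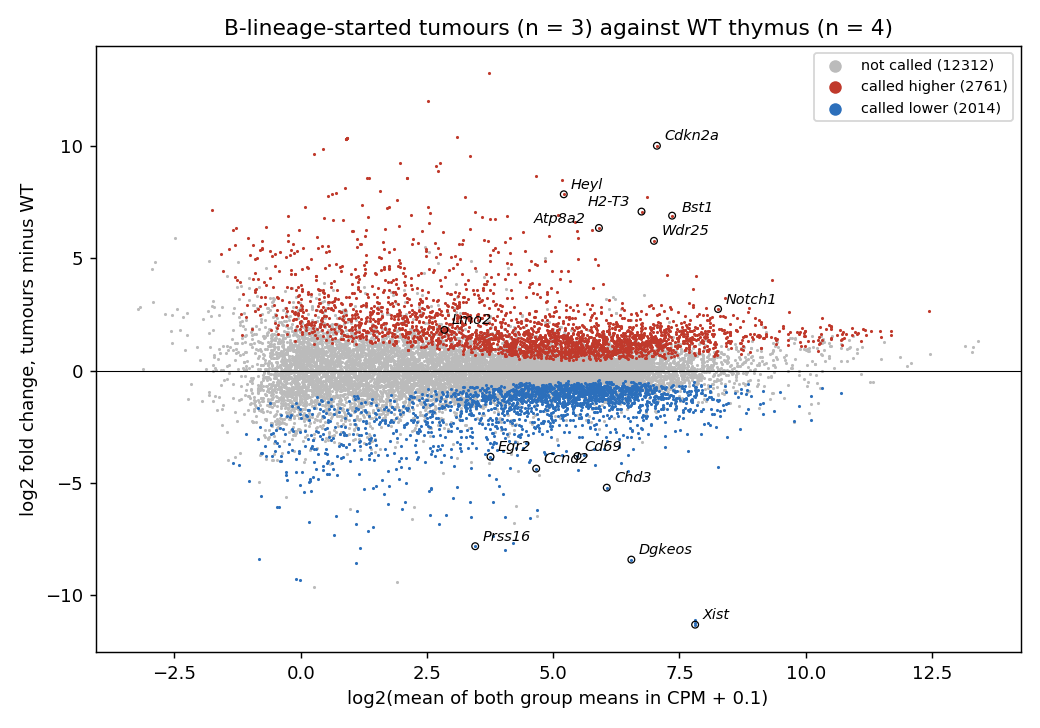
Log2 fold change of the 3 tumours against the 4 WT libraries (vertical axis) by mean level on a log2 CPM scale (horizontal axis), 1 point a gene. Red points are the 2761 genes called higher and blue points the 2014 called lower, with Cdkn2a at 10.01 and Dgkeos at -8.41 among the circled genes, and the lowest circled point is Xist at -11.30, which among the 7 libraries only the female WT ones express.

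Among genes of moderate or high level (a log2 CPM averaging 3 or more over the 7 libraries) whose groups did not overlap, the largest rise was that of H2-T3, which encodes the thymus leukaemia antigen, a non-classical MHC class I protein. It stood at 293, 263 and 84.0 CPM against 1.94, 0.993, 1.74 and 1.63 CPM (log2 fold change 7.08, SE 0.98, adjusted p = 0.00105). Bst1, a cell surface ADP-ribosyl cyclase known as CD157, was the most even of the large rises, with 302, 368 and 304 CPM against 2.57, 3.53, 1.91 and 2.88 CPM (6.90, SE 0.34, adjusted p = 4.05e-07). Its span overlaps Fbxl5, which holds 0.46 times its counts. The flippase gene Atp8a2 had 112, 63.8 and 179 CPM against 0.928 to 1.99 CPM, and Wdr25 324, 113 and 314 CPM against 4.24 to 5.04 CPM. Both were lowest in Mb1-Cre 2 among the tumours. The next rises by size were those of Arhgef10l (4.95), Cpeb1, a regulator of translation (4.44), Tnfrsf8, the receptor CD30 (4.42), Fbln1, a matrix protein (4.42), Coro2a, an actin-binding coronin (4.25), the NOTCH regulator Dtx1 (4.22), the centromere gene Cenpv (4.01) and the peptidase gene Nln (3.88), given as log2 fold changes. Tnfrsf8 had 56.2, 45.4 and 101 CPM against 1.99 to 4.03 CPM, and Cenpv 30.4, 178 and 19.0 CPM against 3.93 to 6.61 CPM. In Cenpv, Mb1-Cre 2 carried most of the rise, which was 2.39 without it. Without Aid-Cre the rise was 3.0 for Nln and 3.60 for Dtx1. All 12 kept their call without any 1 library.

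Under the same limits on level and overlap, and with receptor segments and predicted genes left out, the largest fall was that of Dgkeos, an antisense gene of the diacylglycerol kinase gene Dgke, with 0.486, 0.660 and 0.500 CPM against 254, 219, 141 and 132 CPM (log2 fold change -8.41, SE 1.07, adjusted p = 0.000699). Reads of Dgkeos and Dgke cannot be told apart where they overlap. Chd3, a chromatin remodeller of the NuRD complex, had 2.04, 2.43 and 6.05 CPM against 117, 114, 147 and 142 CPM (-5.21, SE 0.87, adjusted p = 0.00232, and -5.86 without Aid-Cre). The tumours were thus far below all WT libraries. Ccnd2, which encodes cyclin D2, had 0.556, 0.929 and 5.50 CPM against 43.8, 36.3, 61.4 and 50.9 CPM (-4.36, SE 1.34, adjusted p = 0.0287). Its fall was -6.02 without Aid-Cre, and its call was lost without Mb1-Cre 1 (adjusted p = 0.0912), Mb1-Cre 2 (0.116), WT 3 (0.0558) or WT 4 (0.0558). The others were Als2cl (-4.46), the germ cell gene Tdrd5 (-4.43), the lymphocyte GTPase gene Gimap3 (-4.20), S100a10, a partner of annexin A2 (-4.09), the cathepsin gene Ctsw (-4.07), the activation genes Egr2 (-3.83) and Cd69 (-3.80), the zinc finger gene Zfp949 (-3.76) and the interferon-inducible gene Pyhin1 (-3.75). Of these, Als2cl was lost without Mb1-Cre 2 (adjusted p = 0.0744) and fell by 5.66 without Mb1-Cre 1, Ctsw was lost without Mb1-Cre 2 (0.0656), and Zfp949 without Mb1-Cre 1 (0.0532) or Mb1-Cre 2 (0.0705). Without Aid-Cre the fall was 5.41 in Gimap3, 4.79 in Cd69 and 4.40 in Pyhin1 on the log2 scale.

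**Figure D2:**
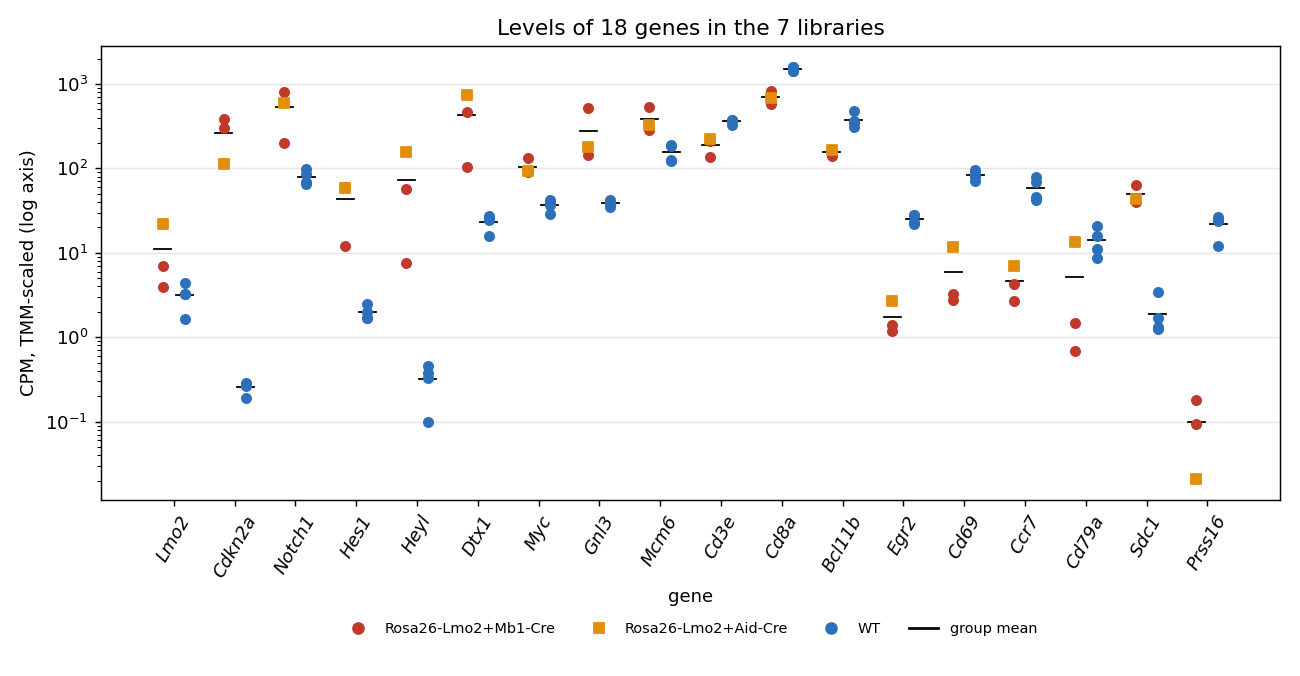
Level of 18 genes in each of the 7 libraries (TMM-scaled CPM, log axis). Red circles are the Mb1-Cre tumours, orange squares the Aid-Cre tumour, blue circles the WT libraries, and black bars the group means. Cdkn2a lies at 112 to 384 CPM in the tumours and at 0.189 to 0.290 CPM in WT, while Cd79a of Aid-Cre lies among the WT libraries.

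The locus of Cdkn2a, which encodes the cell cycle inhibitor p16Ink4a and the p53 activator p19Arf from different first exons, stood out in all 3 tumours. Cdkn2a (chromosome 4, 89274471 to 89294653, minus strand) had 12910, 12822 and 5378 counts against 14, 14, 10 and 14, or 299, 384 and 112 CPM against 0.290, 0.278, 0.189 and 0.265 CPM. On the log2 scale the rise was 10.01 (SE 1.08, adjusted p = 0.000321), and by 9.64 to 10.37 when any 1 library was left out. Counts over the whole span do not show which first exon they come from. Within 500 kb, Cdkn2b, which encodes p15Ink4b, rose from 2 to 18 counts in WT to 67, 37 and 101 counts (log2 fold change 2.93, SE 0.75, adjusted p = 0.0138). Mtap, a gene of methionine salvage on the other side, rose from 830 to 1320 counts to 2222, 2343 and 2873 counts (1.55, SE 0.33, adjusted p = 0.00613). The predicted gene Gm12610 had 124, 152 and 162 counts and none in any WT library, at least 61.2-fold higher with a floor of 3 counts per WT library. The interferon genes on the far side of Mtap did not pass the test or had too few counts for it. Cdkn2a, Cdkn2b, Mtap and Gm12610 were thus read in every tumour.

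RefSeq lists a promoter window (250 bases before to 50 after a start, GRCm38.p6) at each of the 2 starts of Cdkn2a, and both are shown since the rise could not be assigned to either. They are printed 5′ to 3′ on the minus strand, with matches to TTTCCCGC or TTTGGCGC on either strand, forms of the motif of E2F cell cycle factors, in capitals.
Cdkn2a, upstream start, chr4:89294570-89294869: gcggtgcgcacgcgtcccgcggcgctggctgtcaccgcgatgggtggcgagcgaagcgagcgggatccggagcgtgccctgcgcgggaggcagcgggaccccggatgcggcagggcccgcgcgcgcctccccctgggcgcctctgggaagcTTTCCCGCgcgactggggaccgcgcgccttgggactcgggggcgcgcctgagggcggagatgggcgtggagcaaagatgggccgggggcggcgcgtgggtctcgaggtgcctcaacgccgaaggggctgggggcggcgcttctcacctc
Cdkn2a, downstream start, chr4:89282143-89282442: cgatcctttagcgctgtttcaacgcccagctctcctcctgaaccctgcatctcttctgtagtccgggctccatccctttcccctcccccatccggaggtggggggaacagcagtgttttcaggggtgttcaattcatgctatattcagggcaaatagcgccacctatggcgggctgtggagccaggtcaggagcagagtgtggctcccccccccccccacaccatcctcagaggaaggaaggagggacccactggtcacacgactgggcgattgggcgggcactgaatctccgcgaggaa
The upstream window holds 1 match and the downstream window none. A match lies in 514 of all 32851 windows (1.56%). A match is a description of letters and shows no binding.

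Of 19 T-ALL tumour suppressors and cell cycle inhibitors tested, 2 were higher, Cdkn2a and Cdkn2b, and 5 lower. That is 36.8% called, against 27.9% over all genes (16.2% higher and 11.8% lower). The median log2 fold change was -0.30 beside 0.03 over all genes. Of the 5, 1 stayed called without Mb1-Cre 2. Cdkn1b, which encodes the inhibitor p27, had 37.1, 24.8 and 71.5 CPM against 136, 137, 163 and 200 CPM (-1.84, SE 0.42, adjusted p = 0.00854). Bcl11b, a factor of T cell commitment, had 139, 159 and 165 CPM against 309, 348, 367 and 477 CPM (-1.28, SE 0.33, adjusted p = 0.0147, and 0.0526 without Mb1-Cre 2). The groups were clearly apart in both genes, and did not overlap in 39.8% of all genes. Fbxw7, the ubiquitin ligase subunit that turns over NOTCH1 and MYC, had 16.8, 18.1 and 26.8 CPM against 30.7, 37.1, 34.5 and 45.4 CPM (-0.84, SE 0.23, adjusted p = 0.0195), with the call lost without Mb1-Cre 1 (0.0712), Mb1-Cre 2 (0.0847) or WT 4 (0.0611). The dynamin gene Dnm2 (-1.01) and Cnot3, of the CCR4-NOT deadenylase (-0.73), passed the test and were lost without Mb1-Cre 2 (adjusted p = 0.0528 and 0.0585). Cyld, a deubiquitinase, stood at 35.6, 30.6 and 40.0 CPM against 56.1 to 77.2 CPM (-0.87, adjusted p = 0.0539), and Rb1 at 99.7, 94.4 and 114 CPM against 122 to 146 CPM (-0.37, adjusted p = 0.175). Trp53 stood at 140, 134 and 110 CPM against 93.2 to 112 CPM (0.31, adjusted p = 0.300, with the sign turned to -0.02 without TMM factors). Of 13 p53 targets tested, 1 was higher, Phlda3, and 1 lower, Fas, so 15.4% were called, below the 27.9% over all genes. Without Aid-Cre there were 2 higher and 3 lower. Fas was lost without Mb1-Cre 2 (0.0539). Phlda3 (1.92, adjusted p = 0.0231) was lost without Mb1-Cre 1 (1.16, 0.146), Mb1-Cre 2 (0.0541), WT 3 (0.0638) or WT 4 (0.0685).

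NOTCH receptors and targets had a median log2 fold change of 2.53 beside 0.03 over all genes. Of 14 tested, 8 were higher and 1 lower (6 to 7 higher when any 1 library was left out). That is 64.3% called, against 27.9% over all genes. Myc and Ptcra are among the 8 and are counted again in the ribosome biogenesis and pre-TCR lists below. Notch1, the receptor that drives T cell commitment, had 812, 197 and 595 CPM against 65.0, 69.5, 86.6 and 98.4 CPM (log2 fold change 2.74, SE 0.49, adjusted p = 0.00298). All tumours lay above all WT libraries, with Mb1-Cre 2 nearest to them. The spans of Notch1 and 0610009E02Rik overlap. Among the targets, Hes1, a repressor switched on directly by NOTCH, had 59.9, 12.2 and 59.0 CPM against 1.70, 2.48, 2.01 and 1.70 CPM (4.47, SE 0.64, adjusted p = 0.00136). Heyl, of the same repressor family, had 56.7, 7.56 and 156 CPM against 0.331, 0.0993, 0.379 and 0.454 CPM (7.85, SE 1.29, adjusted p = 0.00218, 6.65 without Aid-Cre, and 7.21 with adjusted p = 0.0704 with limma-voom). In both genes Mb1-Cre 2 was again the lowest tumour. Dtx1, which encodes a ubiquitin ligase of the pathway, showed this order too, with 461, 104 and 733 CPM against 25.4, 15.9, 27.1 and 24.6 CPM (4.22, SE 0.83, adjusted p = 0.00446). Hey1, a further repressor of the family, had the opposite order. It stood at 6.79, 34.7 and 7.61 CPM against 1.01, 0.516, 0.398 and 0.530 CPM (4.73, SE 0.83, adjusted p = 0.00282, and 3.55 without Mb1-Cre 2). Ptcra, the pre-TCR alpha chain, had 301, 57.4 and 275 CPM against 28.0, 36.8, 26.9 and 23.2 CPM (2.88, SE 0.90, adjusted p = 0.0308). The call was lost without any 1 library other than Mb1-Cre 2 (adjusted p 0.0539 to 0.0861), and Gm26904 in its span holds 5.42 times its counts. Notch3 (2.34, adjusted p = 0.0316) was lost without TMM factors (0.0682) and without Aid-Cre (1.40, 0.150), Mb1-Cre 1 (0.0559), WT 1 (0.0740), WT 2 (0.0752) or WT 3 (0.0668). Notch2 was the member that fell, with 4.38, 10.1 and 10.1 CPM against 15.1 to 22.9 CPM (-1.18, SE 0.35, adjusted p = 0.0265). Its call was lost without Mb1-Cre 1 (0.0873), Mb1-Cre 2 (0.0523), WT 3 (0.0614) or WT 4 (0.0738), which left no lower member in those fits. Il2ra, the alpha chain of the IL-2 receptor of early thymocytes, stood at 126, 19.1 and 210 CPM against 12.4 to 20.8 CPM and did not pass the test (2.72, adjusted p = 0.132, and 2.02 without Aid-Cre). The median of the list was 2.48, 0.96 and 3.07 in the 3 tumours.

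Myc and genes of ribosome biogenesis gave 18 members higher and none lower of 20 tested (15 to 18 higher when any 1 library was left out), against 16.2% higher over all genes. The median was 1.49 beside 0.03, and 1.24, 1.92 and 1.30 in the 3 tumours. Myc stood at 90.9, 132 and 92.6 CPM against 28.9, 39.2, 42.7 and 36.6 CPM (log2 fold change 1.51, SE 0.41, adjusted p = 0.0173, and 0.0770 without Mb1-Cre 2). Cad, the enzyme that opens pyrimidine synthesis, had 105, 91.0 and 75.0 CPM against 16.6 to 30.4 CPM (1.90, SE 0.28, adjusted p = 0.00142), and Odc1, the first enzyme of polyamine synthesis, 168, 269 and 134 CPM against 46.1 to 60.2 CPM (1.82, SE 0.28, adjusted p = 0.00158). The nucleolar GTPase gene Gnl3 had 144, 520 and 177 CPM against 34.5 to 42.3 CPM (2.84, SE 0.44, adjusted p = 0.00175), and Nop2, an rRNA methyltransferase gene, 86.6, 96.3 and 78.1 CPM against 30.7 to 37.4 CPM (1.39, SE 0.21, adjusted p = 0.00174). Tumours and WT did not overlap in any of these 5 genes, as was the case in 39.8% of all genes. Mb1-Cre 2 was the highest tumour in several members. Npm1, a nucleolar chaperone, had 950, 3686 and 1325 CPM against 436 to 585 CPM, and Srm, the spermidine synthase, 74.9, 183 and 60.3 CPM against 13.6 to 21.0 CPM. Without Mb1-Cre 2 the log2 fold change was 2.04 in place of 2.84 for Gnl3, 1.15 in place of 1.96 for Npm1 and 1.94 in place of 2.60 for Srm, and all 3 stayed called. Wdr12 (0.44, adjusted p = 0.448, and -0.26 without Mb1-Cre 2) and Tfap4 (0.41, adjusted p = 0.482) did not pass the test.

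Mycn, the MYC relative of progenitor cells, had no count in the 3 tumours and 49, 115, 91 and 90 counts in WT, at least 22.7-fold lower with a floor of 3 counts per tumour library. Mycn and Lmo2 were the only called genes among 13 tested early progenitor genes (2 were higher without Mb1-Cre 1, and none without Aid-Cre, WT 2 or WT 3). Kit, the stem cell factor receptor, stood at 0.556, 0.510 and 1.5 CPM against 2.28 to 4.24 CPM (log2 fold change -1.84, adjusted p = 0.132, and -2.52 without Aid-Cre). Of 9 tested genes of the LMO2 complex, Lmo2 included, 2 were higher (1 without Aid-Cre, Mb1-Cre 2, WT 2 or WT 3) and 2 lower (1 without Mb1-Cre 2). The shares called were 15.4% in the early progenitor genes and 44.4% in the LMO2 complex, against 27.9% over all genes. Ldb1, the partner that joins LMO2 complexes, had 115, 126 and 124 CPM against 561, 500, 378 and 414 CPM (-1.93, SE 0.23, adjusted p = 0.000474), an even and wide gap. The E protein genes went apart, with Tcf12 higher (1.40, adjusted p = 0.0109) and Tcf4 lower (-1.23, adjusted p = 0.0127), and both were lost without Mb1-Cre 2 (0.0593 and 0.0613). Lyl1, which can pair with LMO2, stood at 6.23, 2.70 and 31.4 CPM against 2.84 to 4.84 CPM (1.93, adjusted p = 0.113, and 0.34 without Aid-Cre).

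Cell cycle genes gave 6 members higher and none lower of 22 tested, so 27.3% were called, close to the 27.9% over all genes (16.2% higher). The median was 0.66 beside 0.03 (0.31 without TMM factors) and 0.31, 0.90 and 0.57 in the 3 tumours. 4 of the 6 encode subunits of the MCM replicative helicase. Mcm6 had 282, 537 and 330 CPM against 126, 188, 184 and 122 CPM (log2 fold change 1.31, SE 0.30, adjusted p = 0.00932), and Mcm3 183, 326 and 224 CPM against 92.5, 126, 127 and 95.9 CPM (1.14, SE 0.29, adjusted p = 0.0135). Tumours lay above WT in both, and also in Mcm7 (1.18, adjusted p = 0.00614) and Mcm5 (0.81, adjusted p = 0.0395). Over all genes, all tumours lay above all WT libraries in 18.8%. The others were Tyms, thymidylate synthase (1.37, adjusted p = 0.0178), and Birc5, survivin (1.11, adjusted p = 0.0440). Without Mb1-Cre 2, 1 of the 6 stayed called (Mcm7). The adjusted p was then 0.0539 for Mcm6, 0.0766 for Mcm3, 0.145 for Mcm5, 0.234 for Birc5 and 0.148 for Tyms (log2 fold change 0.66), and without WT 4 there were 3 calls, with 0.109 for Mcm5, 0.117 for Birc5 and 0.0558 for Tyms. Mcm5 was also lost without Mb1-Cre 1 (0.0656) or WT 1 (0.0952) and Birc5 without Mb1-Cre 1 (0.0904), WT 1 (0.0749) or WT 3 (0.105), and both without TMM factors (0.174 and 0.126). Mki67, a marker of cycling cells, stood at 453, 671 and 586 CPM against 355 to 578 CPM (0.27, adjusted p = 0.573, with the sign turned to -0.06 without TMM factors).

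The windows of Mcm6 and Mcm3 are shown because both genes rose and hold the E2F-type motif defined above, again in capitals on the minus strand of chromosome 1 (RefSeq, GRCm38.p6).
Mcm6, chr1:128359656-128359955: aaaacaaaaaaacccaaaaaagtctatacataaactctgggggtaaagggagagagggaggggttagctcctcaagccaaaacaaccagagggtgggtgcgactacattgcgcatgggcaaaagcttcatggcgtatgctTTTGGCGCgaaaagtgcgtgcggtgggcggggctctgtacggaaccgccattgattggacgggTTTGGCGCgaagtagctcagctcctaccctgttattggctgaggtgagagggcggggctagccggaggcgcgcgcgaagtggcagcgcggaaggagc
Mcm3, chr1:20820263-20820562: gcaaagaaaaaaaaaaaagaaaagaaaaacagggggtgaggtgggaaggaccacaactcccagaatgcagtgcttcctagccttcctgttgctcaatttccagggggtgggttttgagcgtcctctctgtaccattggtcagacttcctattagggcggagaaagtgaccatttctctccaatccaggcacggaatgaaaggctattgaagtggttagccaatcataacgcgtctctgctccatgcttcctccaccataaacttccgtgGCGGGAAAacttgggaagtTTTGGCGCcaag
Each holds 2 matches, and Mcm5 and 1 of the 2 windows of Mcm7 hold 1 each. Of 19 cell cycle genes with a window these 4 hold a match (21.1%), as do 3 of 13 MYC and ribosome biogenesis genes (23.1%), 71 of 1689 genes called higher (4.20%) and 359 of 10827 genes tested (3.32%). None of 15 genes of selection and mature thymocytes with a window holds one. These shares describe the reference sequence of genes grouped by function. Whether E2F factors had a part in the rises was not tested.

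Genes of the T cell receptor complex and T cell identity were expressed in every tumour, with a summed level of 8246 to 9435 CPM against 14207 to 16694 CPM in WT. Of 23 tested, 11 were lower and none higher, with a median log2 fold change of -0.93 beside 0.03 and of -0.85, -1.16 and -0.97 in the 3 tumours. With all 7 libraries 47.8% were lower, against 11.8% over all genes. The number lower was 5 to 7 when any 1 library was left out, and 5 without Mb1-Cre 2. In these bulk samples fewer cells of a type and less RNA per cell cannot be told apart. Cd3e, a chain of the receptor complex, had 213, 138 and 220 CPM against 330, 373, 376 and 368 CPM (-0.93, SE 0.20, adjusted p = 0.00702). Cd5, which dampens receptor signals, had 73.5, 62.4 and 124 CPM against 332, 274, 301 and 274 CPM (-1.77, SE 0.31, adjusted p = 0.00277), and the related Cd6 101, 73.4 and 137 CPM against 230 to 253 CPM (-1.23, SE 0.26, adjusted p = 0.00572). All 3 were called without any 1 library. The costimulatory receptor gene Cd28 had 33.1, 32.8 and 54.6 CPM against 145 to 260 CPM (-2.35, SE 0.55, adjusted p = 0.00945). Cd8a, a chain of the CD8 coreceptor, had 826, 583 and 673 CPM against 1442, 1606, 1406 and 1596 CPM (-1.12, SE 0.36, adjusted p = 0.0349), but its call was lost whichever of the 7 libraries was left out (adjusted p 0.0552 to 0.131). Cd8b1 (-1.57, adjusted p = 0.0293) was lost without Aid-Cre (0.0741), Mb1-Cre 2 (0.113), WT 1 (0.0575), WT 2 (0.0630) or WT 4 (0.0513), and Tcf7 (-1.0, adjusted p = 0.0364), a factor of early T cells, without any 1 library but Aid-Cre (0.0501 to 0.131). Cd4, the other coreceptor, varied widely, with 300, 94.5 and 390 CPM against 708, 857, 836 and 867 CPM, and did not pass the test (-1.64, SE 0.81, adjusted p = 0.141). The groups did not overlap in Cd8a or Cd4, as was the case in 39.8% of all genes.

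Of 10 genes of the pre-TCR and recombination stage, 2 were higher and 3 lower, with a median of -1.13. The 2 higher were Ptcra and Tcf12, described above, of which 1 stayed called whichever library was left out. Cd1d1, which presents lipids to natural killer T cells, had 18.3, 12.5 and 16.9 CPM against 56.0 to 65.2 CPM (-1.95 as log2 fold change, SE 0.33, adjusted p = 0.00251), and Themis, a receptor signalling adaptor, 135, 176 and 194 CPM against 347 to 487 CPM (-1.26, SE 0.37, adjusted p = 0.0248). Themis was lost without Mb1-Cre 1 (adjusted p = 0.0868), Mb1-Cre 2 (0.0786), WT 3 (0.0526) or WT 4 (0.0645), and in each of these fits 1 of the 3 stayed lower. The recombinase gene Rag1 stood at 87.9, 211 and 599 CPM against 805, 1053, 1618 and 2307 CPM (-2.27, SE 0.89, adjusted p = 0.0708, and -3.28 with adjusted p = 0.0293 without Aid-Cre). Dntt, the polymerase that adds bases at receptor joints, stood at 271, 1027 and 462 CPM against 1473 to 1896 CPM (-1.47, SE 0.62, adjusted p = 0.0905, 0.0288 without TMM factors and -2.15 without Mb1-Cre 2). In both genes the 3 tumours lay below all WT libraries, as in 21.0% of all genes, and far from each other.

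Genes of selection and mature thymocytes had a median of -2.40 beside 0.03, and 15 of 24 were lower and none higher (11 to 17 lower when any 1 library was left out), against 11.8% lower over all genes. Their summed level was 449 to 702 CPM in the tumours and 2103 to 2406 CPM in WT. Egr2, induced by receptor signals, had 1.39, 1.2 and 2.69 CPM against 22.9, 21.7, 28.1 and 27.8 CPM (log2 fold change -3.83, SE 0.42, adjusted p = 0.000333), and Egr1 8.55, 4.29 and 18.5 CPM against 107 to 139 CPM (-3.50, SE 0.57, adjusted p = 0.00219, and -4.20 without Aid-Cre). Cd69, which holds cells in the thymus during selection, had 3.22, 2.79 and 11.8 CPM against 86.6, 79.4, 71.1 and 95.2 CPM (-3.80, SE 0.56, adjusted p = 0.00140). In these 3 genes Aid-Cre was the highest tumour and still far below WT. Ccr7, a chemokine receptor of cells that move to the medulla, had 2.69, 4.32 and 6.98 CPM against 78.9, 45.8, 69.7 and 42.4 CPM (-3.66, SE 0.70, adjusted p = 0.00386), and Ccr9, of cortical cells, 73.7, 63.9 and 103 CPM against 466 to 731 CPM (-2.95, SE 0.52, adjusted p = 0.00282). Zbtb7b, the factor of CD4 lineage choice, had 6.30, 2.67 and 1.94 CPM against 22.7 to 35 CPM (-3.00, adjusted p = 0.00468, and -3.66 without Mb1-Cre 1). Cd40lg, a helper T cell ligand, had 0.0463, 0 and 0.334 CPM against 3.91 to 8.60 CPM (-5.47, adjusted p = 0.00624, and -7.74 without Aid-Cre). Nr4a1, a further receptor-induced factor, fell by 2.80 on the log2 scale (adjusted p = 0.00787). Of the genes named here, none lost its call without any 1 library.

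**Figure D3:**
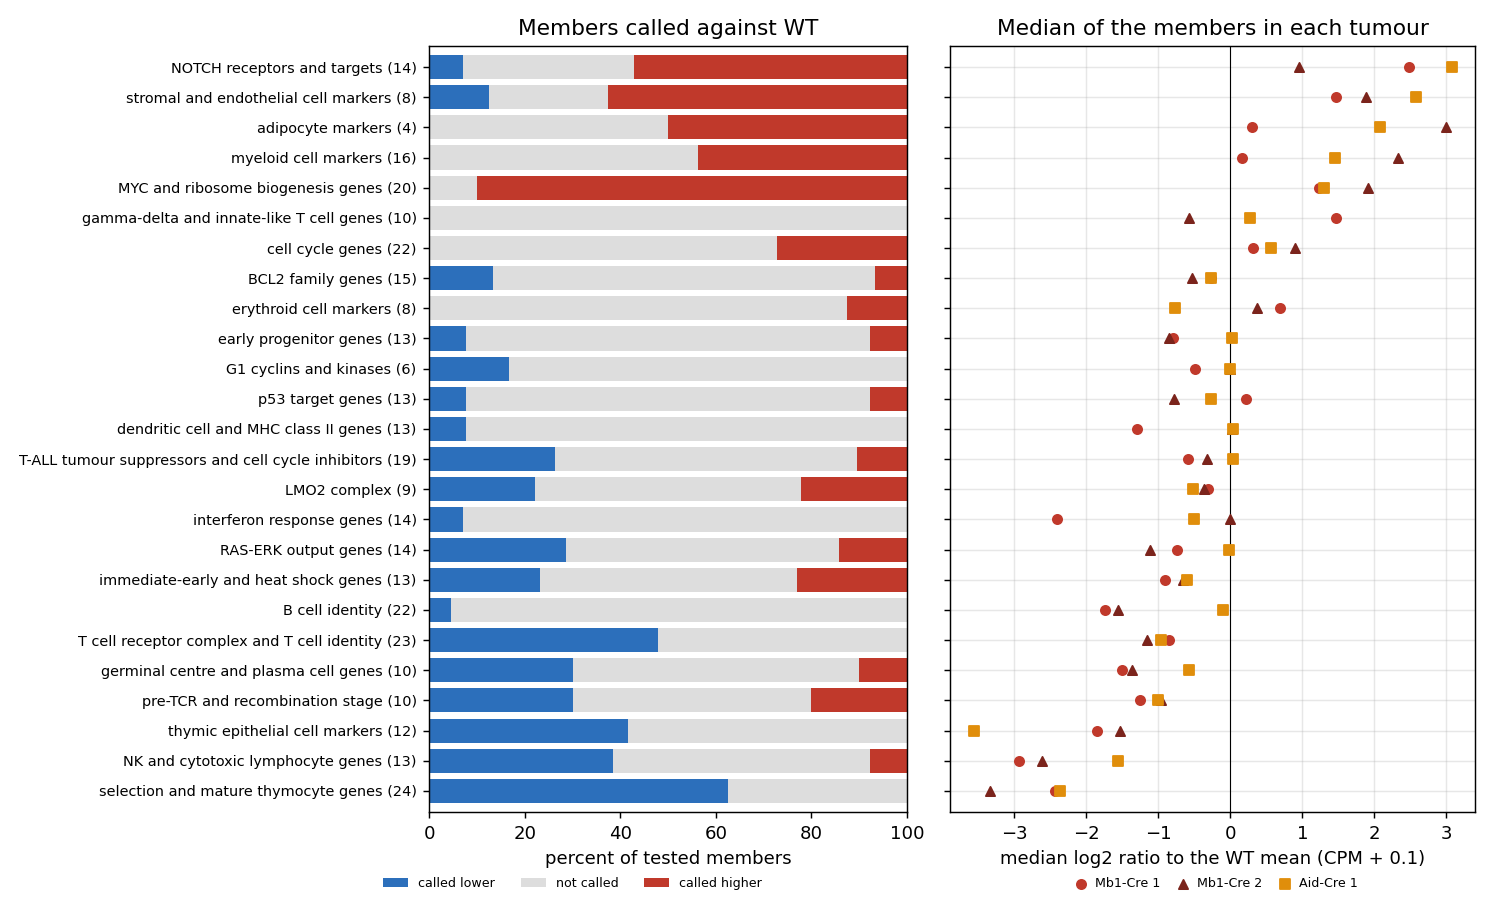
Gene lists against WT, sorted by the median log2 fold change of the fit. The left panel gives the percent of tested members (number in brackets) called lower (blue), not called (grey) or called higher (red). The right panel gives for each tumour the median over members of the log2 ratio of its CPM to the WT mean, with 0.1 added to both. MYC and ribosome biogenesis genes lie at 1.24, 1.92 and 1.30 and selection genes at -2.43, -3.34 and -2.36, while B cell identity lies at -1.75 and -1.56 in the Mb1-Cre tumours and at -0.10 in Aid-Cre.

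Since Lmo2 was started in B-lineage cells, B cell genes were read in each tumour. Of 22 B cell identity genes tested, none was higher and 1 lower, Vpreb1, part of the surrogate light chain (log2 fold change -3.00, SE 0.68, adjusted p = 0.00832), whose span overlaps Top3b with 18.6 times its counts. The median was -1.75 and -1.56 in the Mb1-Cre tumours and -0.10 in Aid-Cre, and 10 of the 22 were lower without Aid-Cre. The B cell surface gene Ms4a1, which encodes CD20, stood at 0.139, 0.330 and 10.7 CPM against 3.24 to 8.69 CPM (-0.77, adjusted p = 0.650, and -4.77 with adjusted p = 0.0110 without Aid-Cre). Pax5, the factor that fixes B cell identity, stood at 0.347, 0.240 and 4.63 CPM against 1.99 to 6.53 CPM (-1.10, adjusted p = 0.451, and -3.66 with adjusted p = 0.0266 without Aid-Cre). In these genes and in Cd79a both Mb1-Cre tumours lay below every WT thymus, and Aid-Cre lay among or, for Ms4a1, above the WT libraries. Antibody genes separated Aid-Cre from the others too. Ighg1, a class-switched heavy chain, had 54, 130 and 1400 counts and stood at 1.25, 3.90 and 29.2 CPM against 0.815 to 1.97 CPM (2.93, adjusted p = 0.0790, and 0.77 without Aid-Cre). Igkc, the kappa light chain, stood at 22.7, 42.4 and 108 CPM against 60.9 to 128 CPM (-0.79, adjusted p = 0.312, and -1.61 with adjusted p = 0.0507 without Aid-Cre), and Ighm at 219, 239 and 361 CPM against 424 to 556 CPM (-0.89, adjusted p = 0.177). Of 10 germinal centre and plasma cell genes tested, 1 was higher and 3 lower, with a median of -0.94 (-1.54 without Aid-Cre). The share called was 40.0% here and 4.55% in the B cell identity genes, against 27.9% over all genes. The member that rose was Sdc1, a surface proteoglycan of plasma cells and other cells, at 40.5, 63.4 and 43.8 CPM against 1.24, 1.67, 3.39 and 1.31 CPM (4.69, SE 0.89, adjusted p = 0.00383). Xbp1, a secretory pathway factor, had 18.9, 51.7 and 37.8 CPM against 99.5 to 117 CPM (-1.57, SE 0.33, adjusted p = 0.00620). The death receptor gene Fas (-2.38, adjusted p = 0.0104) was lost without Mb1-Cre 2 (0.0539). Jchain, which joins secreted antibodies (-2.22, adjusted p = 0.0317), was called only when all 7 libraries or all but Aid-Cre (-3.10, 0.0111) were used, and had an adjusted p of 0.0509 to 0.126 without each of the others, so that 1 of the 3 stayed lower without Mb1-Cre 2.

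Receptor V segments were used to ask how far single segments dominate a library. Many rearrangements can use the same segment, and counts over its span do not show whether it was rearranged. The shares therefore do not count rearrangements. The top beta segment held 71.2% of the T cell receptor beta V counts in Mb1-Cre 1 (Trbv20, 95% Wilson interval 70.2 to 72.1), 90.0% in Mb1-Cre 2 (Trbv4, 89.4 to 90.5) and 47.9% in Aid-Cre (Trbv13-2, 47.6 to 48.3). In every WT library the top segment was Trbv13-2, with 12.5%, 12.9%, 13.4% and 13.5%. The 3 tumours thus each had a different top segment, that of Aid-Cre being the one of WT, and in Aid-Cre a second one, Trbv19, held 26.8%. The mean was 69.7% ± 21.1 (SD, n = 3) against 13.1% ± 0.456 (SD, n = 4), a difference of 56.6 percentage points (two-sided exact permutation test, p = 0.0571, the smallest that 3 against 4 libraries allow, and 0.0857 adjusted over 3 families). The families held 8375, 11571 and 82116 counts in the tumours and 28015 to 38464 in WT. For alpha V segments the top share was 11.4% (Trav6d-7), 7.24% (Trav8n-2) and 11.1% (Trav9-4) against 3.29% to 3.70%, a difference of 6.48 points (exact permutation p = 0.0571, adjusted 0.0857). Immunoglobulin kappa V segments reached the minimum of 200 counts in Mb1-Cre 2 (24.3%, Igkv4-68) and Aid-Cre (8.25%) and not in Mb1-Cre 1 (182 counts, 22.0% of them Igkv4-68 as well, 95% Wilson interval 16.6 to 28.5), against 6.03% to 12% in WT. With 2 tumours against 4 WT libraries the exact test cannot give a p under 0.05 whatever the values, so it could not decide. The difference was 7.64 points (exact permutation p = 0.400, adjusted 0.400, with the sign turned to -0.39 without Mb1-Cre 2). Heavy chain V segments had 49, 49 and 1024 counts against 300 to 935 in WT, and in Aid-Cre the top one held 8.11% against a WT mean of 8.71%, with no test. Intervals cover counting error only, since the reads carry no molecular identifiers.

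**Figure D4:**
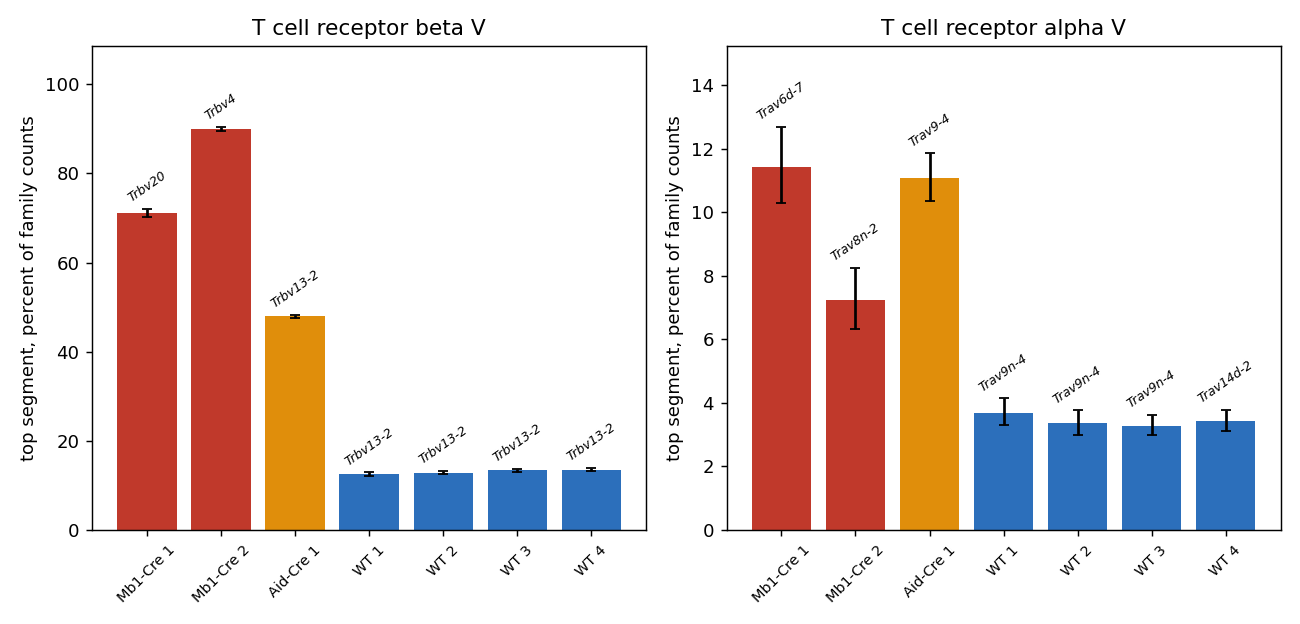
Share of the counts of all T cell receptor beta V (left) and alpha V (right) segments held by the top segment in each of the 7 libraries, in percent, with 95% Wilson intervals and the name of that segment. The beta shares are 47.9% to 90.0% in the tumours and 12.5% to 13.5% in WT.

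Genes of gamma-delta and innate-like T cells gave no call in 10 tested, against 27.9% called over all genes, and differed among the tumours. Tcrg-C1, a gamma chain constant gene, stood at 404, 58.0 and 145 CPM against 13.9 to 23.3 CPM (log2 fold change 3.34, adjusted p = 0.0885, and 2.35 without Mb1-Cre 1). Trdc, the delta constant gene, stood at 145, 10.9 and 0.417 CPM against 75.7, 106, 83.0 and 64.4 CPM (-0.66, adjusted p = 0.807, and -3.87 without Mb1-Cre 1). Mb1-Cre 1 was thus above all WT libraries in both genes, while Aid-Cre was nearly without Trdc. Gamma V segments held 646, 57 and 1888 counts against 53 to 180 in WT. The summed level of the list was 994 CPM in the highest tumour and 150 CPM in the lowest, against 179 to 234 CPM in WT.

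Markers of other cells were read because whole thymus holds them. Of 12 tested markers of thymic epithelium 5 were lower and none higher, with a median of -2.31, and 2 to 4 were lower when any 1 library was left out (2 without Aid-Cre or Mb1-Cre 2, and 3 without WT 1, WT 2 or WT 3). Foxn1, their defining factor, did not reach the CPM minimum in this table. Their summed level was 43.7 to 51.4 CPM against 99.8 to 128 CPM. Prss16, a protease of cortical epithelium, had 0.0927, 0.180 and 0.0208 CPM against 26.6, 24.4, 23.6 and 11.9 CPM (log2 fold change -7.81, SE 0.91, adjusted p = 0.000463, and -8.53 without Mb1-Cre 2). Cxcl12, a chemokine of the stroma, fell by 3.09 (adjusted p = 0.0103, and by 3.70 without Aid-Cre), and the epithelial proteasome gene Psmb11 by 2.88 (adjusted p = 0.0219, lost without Aid-Cre at 0.0513 and Mb1-Cre 2 at 0.0878, and -3.57 without Mb1-Cre 1). Aire, of medullary epithelium, fell by 2.50 (adjusted p = 0.0370), but by 3.76 without Mb1-Cre 1, and was not called without Aid-Cre (0.0708), Mb1-Cre 2 (0.138), WT 1 (0.0726), WT 2 (0.0563) or WT 3 (0.0799). Of 16 myeloid markers 7 were higher and none lower, with a median of 0.16, 2.33 and 1.46 in the 3 tumours and a summed level of 357 to 1586 CPM against 177 to 365 CPM. The number higher was 2 without Mb1-Cre 2 and 4 without WT 2, WT 3 or WT 4. Lyz2, lysozyme of macrophages, had 186, 704 and 263 CPM against 51.7 to 121 CPM (2.03, adjusted p = 0.00810, and 1.26 with adjusted p = 0.0562 without Mb1-Cre 2), and Fcgr3, an Fc receptor, 6.53, 54.2 and 15.0 CPM against 1.85 to 4.90 CPM (2.93, adjusted p = 0.00470, and 1.70 without Mb1-Cre 2). Cd14, the coreceptor for bacterial lipopolysaccharide, was more even, with 5.14, 3.93 and 2.79 CPM against 0.238 to 0.497 CPM (3.55, adjusted p = 0.00363). Cd68 (1.99, adjusted p = 0.0173) was lost without Mb1-Cre 2 (1.18, 0.143) or WT 4 (0.0511). Mb1-Cre 2 had the highest summed level. It was also the tumour with the highest ribosome biogenesis and cell cycle medians and the lowest NOTCH median, and the part of myeloid cells in these values was not tested. Of 8 stromal and endothelial markers 5 were higher and 1 lower, while their summed levels overlapped (104 to 144 CPM against 125 to 144 CPM). The collagen gene Col3a1 had 5.40, 6.21 and 16.2 CPM against 0.644 to 1.80 CPM (3.09, adjusted p = 0.00432, and 2.41 without Aid-Cre), Col1a1 3.96, 3.39 and 5.96 CPM against 0.435 to 0.834 CPM (2.77, adjusted p = 0.00315) and Pdgfrb, a receptor of pericytes, 24.3, 4.77 and 26.6 CPM against 0.786 to 1.74 CPM (4.05, adjusted p = 0.00755). The endothelial marker Cdh5 did not reach the CPM minimum, and Pecam1 fell (-0.68, adjusted p = 0.00820). Of 12 adipocyte markers 4 reached the minimum and 2 were higher, among them the fatty acid binding gene Fabp4 with 2.90, 34.5 and 10.1 CPM against 1.14 to 1.86 CPM (3.47, adjusted p = 0.00507, and 2.18 without Mb1-Cre 2), while Adipoq and Plin1 were below it. Erythroid markers gave 1 call in 8, Epor (3.03, adjusted p = 0.0269), which was lost without any 1 library but Aid-Cre (0.0529 to 0.113), and globin levels overlapped, and 2 were higher without Aid-Cre. Of 13 dendritic cell and MHC class II genes 1 was lower, Siglech of plasmacytoid cells (-3.09, adjusted p = 0.0162, and 0.0512 without Mb1-Cre 2), and 2 were lower without Aid-Cre. Over all genes 27.9% were called, 16.2% higher and 11.8% lower. The share called was above this in thymic epithelium (41.7%) and myeloid markers (43.8%). It was also above it in the stromal and adipocyte lists, with only 8 and 4 genes tested. It was below it in erythroid markers (12.5%) and in dendritic cell and MHC class II genes (7.69%).

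Of 13 NK and cytotoxic lymphocyte genes 5 were lower and 1 higher, with a median of -2.38. That is 46.2% called, against 27.9% over all genes. 2 stayed lower without Mb1-Cre 1 or Mb1-Cre 2 and 3 without WT 3. Klrk1, the activating receptor NKG2D, had 0.232, 0.450 and 2.31 CPM against 5.84 to 10.9 CPM (-3.09 as log2 fold change, SE 0.68, adjusted p = 0.00734, and -4.65 without Aid-Cre), and Klrd1 1.04, 1.05 and 1.90 CPM against 4.61 to 9.37 CPM (-2.38, SE 0.56, adjusted p = 0.00984). Both receptor genes were low in all 3 tumours. Il2rb, the IL-2 receptor beta chain (-2.92, adjusted p = 0.0161), was lost without Mb1-Cre 1 (0.0581) or Mb1-Cre 2 (0.0767), and -3.67 without Aid-Cre. Fasl, a death ligand (-2.68, adjusted p = 0.0343), was lost without Mb1-Cre 1 (0.111), Mb1-Cre 2 (0.131), WT 1 (0.0612), WT 3 (0.0757) or WT 4 (0.0615), and -3.67 without Aid-Cre. Eomes (-2.81, adjusted p = 0.0378), a factor of cytotoxic cells, was lost without Mb1-Cre 1 (0.104), Mb1-Cre 2 (0.145) or WT 3 (-1.63, 0.150), the WT library that holds most of it. Gzma, which encodes a granule protease, went the other way at 104, 582 and 60.1 CPM against 21.5 to 42.2 CPM (2.90, adjusted p = 0.0471). Its call was lost without any 1 library but Aid-Cre (0.0524 to 0.390), with a log2 fold change of 1.31 without Mb1-Cre 2, and without TMM factors (0.0691).

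Outputs of RAS-ERK signalling gave 4 members lower and 2 higher of 14, with a median of -0.56. That is 42.9% called, against 27.9% over all genes. None stayed higher without Mb1-Cre 2 or WT 1, and 1 without Mb1-Cre 1, WT 2, WT 3 or WT 4. Dusp5, a phosphatase that acts on ERK, had 10.2, 13.0 and 19.9 CPM against 67.4, 60.3, 49.1 and 51.4 CPM (log2 fold change -1.99, SE 0.32, adjusted p = 0.00197), and Spry2, a feedback inhibitor, 0.162, 0.180 and 0.0417 CPM against 1.24 to 2.03 CPM (-3.67, SE 0.95, adjusted p = 0.0149). Dusp6, the other phosphatase named, had 5.91, 5.07 and 10.9 CPM against 30.1 to 38.8 CPM (-2.16, SE 0.61, adjusted p = 0.0213), and was lost without Mb1-Cre 1 (0.0710), Mb1-Cre 2 (0.0956) or WT 4 (0.0506). The groups did not overlap in these 3 genes, as was the case in 39.8% of all genes. Among immediate-early and heat shock genes 3 of 13 were lower and 3 higher (46.2% called), with a median of -0.76. None stayed higher without Mb1-Cre 2, and 1 without WT 1. Junb, part of AP-1, had 12.9, 13.5 and 13.5 CPM against 55.7, 40.4, 41.7 and 38.1 CPM (-1.73, SE 0.26, adjusted p = 0.00154). Ier2 fell (-1.44, adjusted p = 0.0182, and 0.0890 without Mb1-Cre 2), and the stress factor Atf3 rose (3.28, adjusted p = 0.0133, and 0.0600 without Mb1-Cre 2). In the BCL2 family 2 of 15 were lower and 1 higher (2 higher without Aid-Cre, and 1 lower without any 1 of the 7 libraries). The share called was 20.0%, below the 27.9% over all genes. Mcl1, which guards thymocytes from cell death, had 158, 121 and 216 CPM against 341 to 354 CPM (-1.07, SE 0.21, adjusted p = 0.00439), and Bcl2l1, which encodes BCL-xL, fell too (-1.48, adjusted p = 0.0373) but was lost whichever of the 7 libraries was left out (0.0599 to 0.108). Bid, which promotes cell death, had 65.8, 52.0 and 69.1 CPM against 35 to 40.5 CPM (0.73, SE 0.18, adjusted p = 0.0109, and 0.220 without TMM factors). Of 14 interferon response genes 1 was lower, the GTPase gene Gbp2 with 2.36, 6.33 and 8.65 CPM against 21.2 to 30.8 CPM (-2.16, SE 0.48, adjusted p = 0.00801). Its list had a median of -2.41 in Mb1-Cre 1 and of -0.50 in Aid-Cre, and lay near 0 in Mb1-Cre 2. Of 6 G1 cyclins and kinases, Ccnd2 was the only call (16.7%). The share was 7.14% in interferon response genes, and both were below the 27.9% over all genes. The sex-linked genes gave 1 call of 5, Xist, which is set by the female WT libraries (-11.30, adjusted p = 0.0356, lost without any 1 of Aid-Cre, Mb1-Cre 1, Mb1-Cre 2, WT 3 and WT 4 at 0.0622 to 0.128).

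Variation among the 3 tumours was described without a test. Of 5844 genes whose log2 CPM averaged 5 or more in them, 44 ranged over more than 8-fold. The widest range was that of Ifi202b, an interferon-inducible DNA sensor gene, at 10.1, 344 and 337 CPM against 0, 4.23, 0.0758 and 0.0568 CPM in WT, so that all tumours lay above WT and Mb1-Cre 1 lay well below the other two. Its log2 fold change was 7.72 (adjusted p = 0.00867), and 12.23 without WT 2. Its neighbour in function Ifi204 was low in Mb1-Cre 1 as well, at 4.05, 66.9 and 128 CPM against 2.57 to 5.15 CPM (4.09, adjusted p = 0.0162, 3.19 without Aid-Cre, and lost without WT 4 at 0.0507). Camk2b, a calcium-dependent kinase gene, stood at 22.2, 485 and 714 CPM against 513 to 796 CPM (-0.67, adjusted p = 0.594, and -1.35 without Aid-Cre), again with Mb1-Cre 1 apart. Aid-Cre stood apart in the other 3 of the 6 widest genes. Erdr1 had 325, 154 and 11.7 CPM against 54.7 to 506 CPM (-1.08, adjusted p = 0.648, and -2.06 without Mb1-Cre 1). The ribosomal protein pseudogenes Rpsa-ps10, with 1306, 2364 and 91.6 CPM against 259 to 645 CPM (1.47, adjusted p = 0.222, and 0.63 without Mb1-Cre 2), and Rpl14-ps1, with 113, 171 and 7.57 CPM against 17.9 to 46.9 CPM (1.65, adjusted p = 0.161, 2.2 with adjusted p = 0.0340 without Aid-Cre, and 0.96 without Mb1-Cre 2), share near-identical sequence with their parent genes, so their counts are uncertain.

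**Figure D5:**
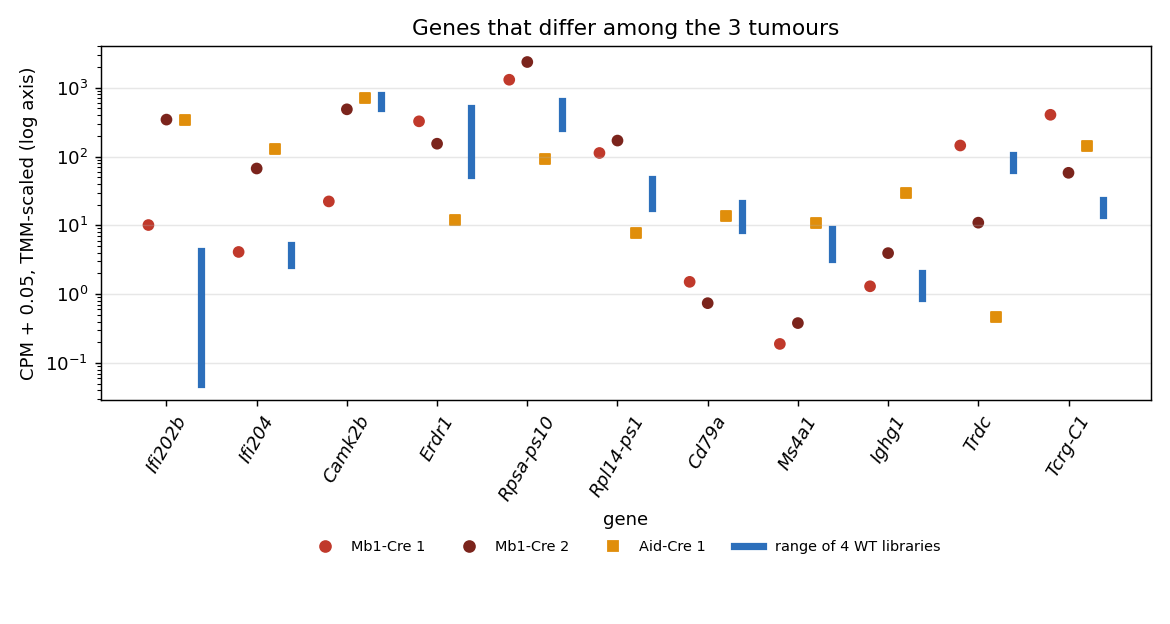
Level of 11 genes that differ among the 3 tumours (TMM-scaled CPM with 0.05 added, log axis). Red, dark red and orange points are Mb1-Cre 1, Mb1-Cre 2 and Aid-Cre, and blue bars span the 4 WT libraries. Ifi202b, Ifi204 and Camk2b are lowest in Mb1-Cre 1, the B cell genes Cd79a, Ms4a1 and Ighg1 are highest in Aid-Cre, and Trdc ranges from 0.417 to 145 CPM.

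The tumours were next compared with Rosa26-Lmo2+Sca1-Cre tumours, in which the same allele is opened in stem and progenitor cells. The B-lineage-started mice were 20 to 22 months old and these mice 9 months, so age and model cannot be told apart. By their counts Rosa26-Lmo2+Sca1-Cre replicates 1 and 2 were female and replicate 3 male, while all B-lineage-started tumours were male. Of 17087 genes 48 passed the test (0.281%), 20 higher (0.117%) and 28 lower (0.164%), and 2998 had an unadjusted p under 0.05. Of the calls 41.7% were higher, against 69.6% without TMM factors (56 calls). These counts were not stable. With only the 2 groups in the fit there was no call, although 1588 genes had an unadjusted p under 0.05, with limma-voom there was 1 call and with DESeq2 there were 1198, and leaving out 1 library gave 2 (without Mb1-Cre 2), 7 (Rosa26-Lmo2+Sca1-Cre replicate 1), 25 (Mb1-Cre 1), 123 (Rosa26-Lmo2+Sca1-Cre replicate 3) and 155 (Rosa26-Lmo2+Sca1-Cre replicate 2). Cdkn2a was the largest rise that met the rule for naming, at 299, 384 and 112 CPM against 5.87, 0.129 and 0.759 CPM (log2 fold change 6.88, SE 1.07, adjusted p = 0.0476). Hey1 of the NOTCH list stood at 6.79, 34.7 and 7.61 CPM against 0.282, 0.258 and 0.0799 CPM (6.31, SE 1.03, adjusted p = 0.0476). Both were also far above the WT libraries. Supt16, a histone chaperone gene, had 338, 1392 and 415 CPM against 120 to 157 CPM (2.42, SE 0.45, adjusted p = 0.0488), and Mir17hg, the host of the miR-17-92 cluster, 46.1, 56.1 and 52.9 CPM against 7.81 to 19.1 CPM (2.00, SE 0.30, adjusted p = 0.0476). The mitotic gene Cdca2 (1.93), the kinetochore gene Nuf2 (1.88) and the replication gene Mcm10 (1.55) were higher too. Among the genes lower, Dgkeos stood at 0.486, 0.660 and 0.500 CPM against 1.41, 7.83 and 46.5 CPM (-5.08, SE 0.94, adjusted p = 0.0488), with the highest value in replicate 3, which also had the most counts on 231 silent long genes (0.784 per kb, against at most 0.122 in any other library). Pde7a, a phosphodiesterase gene, had 19.0, 13.7 and 26.2 CPM against 215, 86.7 and 204 CPM (-3.10, SE 0.53, adjusted p = 0.0476). S100a11 (-2.80), Cuedc1 (-2.79), the phosphatase gene Ptprj (-2.15), the integrin gene Itga6 (-2.09), Ivd of leucine breakdown (-2.0) and Dusp5 of the RAS-ERK list (-1.93) were lower. Against WT, Mir17hg (0.38, adjusted p = 0.297), Pde7a (-1.18, 0.0773), Cuedc1 (-0.82, 0.192) and Ptprj (-0.55, 0.190) were not called. The other genes named in this comparison were called in the same direction against WT. The groups did not overlap in any of the 15 genes named in this comparison, but for the top 6 in each direction this was a condition of being named. The calls of these genes against Rosa26-Lmo2+Sca1-Cre all lay between 0.0476 and 0.0488 in adjusted p.

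Against Sca1-Lmo2 tumours 641 genes passed the test (3.75%), 340 higher (1.99%) and 301 lower (1.76%), and 4245 had an unadjusted p under 0.05. The number was 1802 without Aid-Cre, 26 without Mb1-Cre 2, 8 without Sca1-Lmo2 replicate 1, 415 without replicate 2 and 23 without replicate 3 of that group, and 9 with only both groups in the fit. Sca1-Lmo2 mice were 7 to 8 months old and the B-lineage-started mice 20 to 22 months, so age and model cannot be told apart here either. Sca1-Lmo2 replicates 1 and 3 were female by their counts. The genes named here were picked from the lists after their values were seen. Hey1 stood at 6.79, 34.7 and 7.61 CPM against 0, 0.0405, 0 and 0.0830 CPM (adjusted p = 0.00468), and Cdkn2a at 299, 384 and 112 CPM against 2.47, 5.19, 3.31 and 8.28 CPM (log2 fold change 5.78, SE 0.89, adjusted p = 0.0181). These 2 genes were thus far above every library of all other groups of the series. Of the myeloid markers 8 of 16 were called, among them Lyz2 at 186, 704 and 263 CPM against 29.8 to 85.0 CPM (2.73, SE 0.46, adjusted p = 0.0248). Of 13 dendritic cell and MHC class II genes 4 were called, among them H2-Aa at 41.6, 108 and 89.9 CPM against 17.4 to 29.2 CPM (1.69, SE 0.29, adjusted p = 0.0248). Against Rosa26-Lmo2+Sca1-Cre neither list had a call, and the difference between these numbers was not tested. Among genes of early cells and of ERK output, Kit stood at 0.556, 0.510 and 1.5 CPM against 36.2, 0.770, 16.3 and 11.1 CPM (-4.22, SE 0.98, adjusted p = 0.0386), and Etv5, a factor induced by ERK signals, at 6.49, 4.32 and 4.46 CPM against 293, 8.88, 199 and 95.3 CPM (-4.87, SE 1.03, adjusted p = 0.0314). Sca1-Lmo2 replicate 2 was the library closest to the B-lineage-started tumours in both, and overlapped them in Kit.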

How the data were processed

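RNA of 14 mouse thymus samples was sequenced as unstranded TruSeq libraries. The authors aligned the read pairs with TopHat2 (2.1.0) to mm10/GRCm38 and deposited raw read counts per gene, taken over the whole gene span and without normalization, so intronic and overlapping reads are included. Of 46948 lines, 46946 named a gene and were kept. Testing was limited to the 17087 genes that reached 1 CPM in 3 or more libraries.

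Counts were fitted with edgeR (4.0.16, R 4.3.3) over all 14 libraries with TMM factors, quasi-likelihood F tests and 4 group levels, the 3 B-lineage-started tumours as 1 level, and p values were adjusted by Benjamini-Hochberg over all genes with a threshold of 0.05. The standard error of a log2 fold change is its size divided by the square root of F. Receptor segment shares were compared by exact permutation in scipy (1.17.1), for families with at least 200 counts. The labels name separate samples and no shared animals, so p values measure the spread between these samples, which may be technical in part.

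Named were Lmo2, its Rosa26 host locus and Cd79a, the top 12 called genes in each direction by size of change (mean log2 CPM of at least 3, no overlap between groups, no receptor segments or predicted genes), up to 4 called members of each of 26 lists, genes the study named, the top 6 in each direction against Rosa26-Lmo2+Sca1-Cre, and the 6 genes that varied most among the tumours. The same limits on level, overlap and symbols were set for the top 6 against Rosa26-Lmo2+Sca1-Cre, over the libraries of that comparison. Other members named, such as Ms4a1, Ighg1, Lyl1, Rag1, Mki67 and Kit, were chosen after their values were seen. Members and lists were chosen with earlier results of these data known. Some called members, such as Myc, Ptcra, Egr1, Cd5, Tcf12 and Fas, belong to more than 1 list, so the lists are not independent. Alternatives were DESeq2 (1.42.0), limma-voom (3.58.1), other scalings and filters, fewer or more groups, sex as a term, a replicate block, and each library left out. On counts simulated for the comparison with WT (17087 genes), edgeR recovered 2, 21, 46 and 50 of 50 genes changed by 1, 2, 3 and 4 log2 units and called 1 of 16887 unchanged genes. The simulation gave all genes of a group the same spread, took the WT mean as the base level of every group and changed few genes. These rates therefore need not hold for the real counts. Some genes that this rule names are not reported here.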

Additional observations from a re-analysis of the deposited data

Results flagged for a closer look

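Among 157 named genes, 7 had a WT library far from the other 3, where chance alone flags about 1 gene in 20. The highest library was WT 2 for Cenpv (6.61 CPM, with a WT median of 4.16) and for Ifi202b (4.23 CPM, median 0.0663), WT 4 for Dusp6 (38.8 CPM, median 30.9) and for Tcf4 (21.3 CPM, median 15.7), and WT 3 for Eomes (5.91 CPM, median 1.03). The lowest library was WT 2 for Gata1 (1.01 CPM, median 1.33) and WT 1 for Mir17hg (37.0 CPM, median 40.4).

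A difference between the B-lineage-started and the Rosa26-Lmo2+Sca1-Cre tumours, tested within the fit of edgeR (adjusted p = 0.0476 or 0.0488), was found in 15 named genes. Genes were named in part because they passed this same test, so the number of them is no result of its own. Over all genes 48 of 17087 passed (0.281%). As log2 fold changes, the genes higher in the B-lineage-started tumours were Cdkn2a (6.88), Hey1 (6.31), Supt16 (2.42), Mir17hg (2.00), Cdca2 (1.93), Nuf2 (1.88) and Mcm10 (1.55). The genes lower in them were Dgkeos (-5.08), Pde7a (-3.10), S100a11 (-2.80), Cuedc1 (-2.79), Ptprj (-2.15), Itga6 (-2.09), Ivd (-2.0) and Dusp5 (-1.93).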

How the results depend on the processing

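Against WT 4775 genes were called, 1930 to 5999 when 1 library was left out, and 3694 to 6153 under the other scalings, filters, tools and group settings. Without both female WT libraries, a setting chosen after seeing the data, 623 were called, 619 of them shared with the 4775. In that fit 4299 had an unadjusted p under 0.05. Against Rosa26-Lmo2+Sca1-Cre the 48 calls became 114 with no filter, 1198 with DESeq2, 1 with limma-voom, 0 with only both groups in the fit (1588 at an unadjusted p under 0.05), 13 with 5 groups, and 2 to 155 when 1 library was left out. Against Sca1-Lmo2 the 641 calls became 224 without TMM factors, 2346 with DESeq2, 214 with limma-voom, 9 with only both groups, 253 with 5 groups, and 8 to 1802 when 1 library was left out. The cause was not tested.

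Log2 fold changes turned their sign for Mki67 (-0.061) and Trp53 (-0.018) without TMM factors, Rpsa-ps10 with 5 groups (-0.14), Wdr12 without Mb1-Cre 2 (-0.26, the lowest of -0.26 to 0.73 when 1 library was left out), Trdc under the replicate block (0.37), and so did the kappa V share difference, which ran from -0.39 to 15.7 points when 1 library was left out. None of these 6 had passed its test. The share difference ran from 46.5 to 67.5 points for beta V and from 5.72 to 7.82 points for alpha V. Of 127 called genes named, none turned its sign. The call was lost in 42 without Mb1-Cre 2, in 10 to 22 without any other 1 library and in 84 without both female WT libraries. It was lost in none with DESeq2 (of 126), DESeq2's size factors or only both groups, and in 8 to 14 under the other scalings, filters, tools and terms. Lost with limma-voom were Birc5, Dusp6, Eomes, Epor, Gzma, Heyl, Ifi202b, Ifi204, Lmo2, Notch3, Pdgfrb, Phlda3, Ptcra and Xist (adjusted p 0.0535 to 0.659). Lost without TMM factors were Bid, Birc5, Gzma, Ier3, Lmo2, Mcm5, Notch3 and Nuf2, and with no filter Bid, Birc5, Fasl, Fbxw7, Ier3, Mcm5, Nuf2, Pecam1 and Tcf7. Lost with sex as a term were Birc5, Ccnd2, Cd8a, Eomes, Fasl, Ifi204, Notch2, Notch3, Nuf2, Ptcra, Tcf7 and Themis, and with 5 groups Bcl2l1, Birc5, Cd8a, Eomes, Epor, Gzma, Mcm5, Phlda3, Tcf7 and Xist. Of the 26 list medians, 7 moved by more than the SD of the list's median over the 3 tumours without TMM factors, 4 with the replicate block, 4 without Aid-Cre and at most 2 in any other setting. Without TMM factors the cell cycle median was 0.31 in place of 0.66, the T cell identity median -1.20 in place of -0.93, the pre-TCR median -1.44 in place of -1.13, the LMO2 complex median -0.76 in place of -0.42 and the immediate-early median -1.08 in place of -0.76, and those of G1 cyclins (-0.26 in place of 0.07) and the BCL2 family (-0.14 in place of 0.23) turned their sign. The BCL2 family median was also below 0 with limma-voom, without both female WT libraries and without Mb1-Cre 2 (-0.39). The median of the sex-linked genes was 0.67 with limma-voom in place of -0.42. The medians of the early progenitor, erythroid, gamma-delta, p53 target and dendritic cell lists turned their sign in at least 1 setting too, by less than that SD, the gamma-delta median from 0.83 to -0.02 with limma-voom and -0.18 without Mb1-Cre 1. The B cell identity median was -1.76 without Aid-Cre and -1.96 with the replicate block, in place of -0.78. Without Rosa26-Lmo2+Sca1-Cre replicate 3, also chosen after seeing the data, 5209 genes were called and none of the 127 was lost.

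Whether replicate numbers pair the samples could not be decided. Deviations of Mb1-Cre and WT libraries of the same number correlated at -0.089 and 0.115 across genes, over 2 pairs. With 2 Mb1-Cre libraries their deviations from the group mean mirror each other. Libraries of different number thus gave the same values with the sign turned, 0.089 and -0.115. With the replicate block 3196 genes were called, 2832 of them shared with the fit without it, and 37 of the 127 named genes lost their call, among them Lmo2 (0.91 in place of 1.81, adjusted p = 0.230).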
